A study of Drosophila melanogaster with 23 samples.

Results

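The 92 genes described here are named for proteins of the cytoplasmic ribosome of Drosophila melanogaster. Their promoters were examined for binding of Mzfp1 (CG1603), a zinc finger protein with MADF domains. The set takes in all protein-coding genes whose symbol starts RpL or RpS, among 13986 protein-coding genes of the annotation. The stalk symbols (RpLP) are included and the mitochondrial mRp genes left out. The symbol places 50 of the 92 in the large subunit, 38 in the small subunit and 4 in the stalk, and it also admits relatives named "-like". A gene was called bound in a list when a deposited region shared at least 1 bp with the 200 bp on either side of one of its annotated transcription start sites.

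The ribosome is built from rRNA and these proteins, whose genes are transcribed strongly in growing cells and belong to the housekeeping genes. In flies many of their promoters start transcription at a pyrimidine-rich TCT initiator. Many housekeeping promoters also carry the DRE word TATCGATA, the element bound by DREF and BEAF-32, or the core of Motif 1, another promoter word of constitutively active genes.

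The data are 10 lists of ChIP-seq regions from 18 immunoprecipitated libraries and 5 control libraries. The 2 embryo lists came from y1w1118 embryos, each from 1 library, one made with rat and the other with rabbit anti-Mzfp1 antibodies. The 8 adult lists came from whole flies of 2 to 3 days, 2 libraries in each list. One was made from y1w1118 adults with anti-Mzfp1. The other 7 came from lines labelled U:Mzfp1WT/TM6,Tb, U:Mzfp1deltaM2/TM6,Tb, U:Mzfp1delta42/TM6,Tb and U:Mzfp1deltaZf/TM6,Tb, called here wt-HA and the mutants ΔM2-HA, Δ42-HA and ΔZF-HA, precipitated with anti-HA (all 4) or anti-Mzfp1 (all but the last). Each carries, over the TM6,Tb balancer, a transgene for HA-tagged Mzfp1 under the Ubi-p63E promoter at a single landing site, in whole, without the second MADF domain (ΔM2), without the region that contacts CP190 (Δ42) or without part of the zinc finger cluster (ΔZF). Their strain carries y[1], w[*], an integrase source (vas-int.Dm) on the insertion ZH-2A and the attP landing site ZH-86Fb, with RFP and GFP eye markers. By the study's methods these flies also carried the CG1603attP deletion over CyO, so 1 endogenous copy was present throughout and anti-Mzfp1 precipitated both proteins, anti-HA the tagged one only. Immunoblots of the study showed more of the ΔM2 protein and less of the Δ42 protein than of the whole one, and whole organisms mix all cell types. By its reproducibility ratios the study rated both wt-HA lists, ΔM2 with anti-Mzfp1 and Δ42 with anti-HA as moderate and the other adult lists as good. For the ΔZF protein, however, the study reported neither true peaks nor significant signal with anti-HA. The 4 anti-HA lists share 1 anti-HA control from y1w1118 flies, the adult anti-Mzfp1 lists share control libraries with non-specific IgG, and each list is a single measurement with no SD. The lists held between 117 (embryo rabbit) and 6245 (ΔM2-HA anti-HA) regions, so a share of genes bound is comparable only with the other genes of the same list. Read depth cannot be read from lists of regions.

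The promoters that carried the strongest regions come first, as sequence. The stretches below run from 170 bases before the start site nearest the summit in y1w1118 adults to 15 bases from it, in 185 letters on the gene's strand, from the RefSeq Release 6 sequence (dm6). Capitals mark the DRE word TATCGATA and the TCT initiator words CTTTT or CTTTC that start within 10 bases of the start site. The first 5 are the genes outside the right arm of chromosome 2 that were bound in 9 or 10 of the 10 lists.
RpL5, chr2L:22536673-22536857, minus strand: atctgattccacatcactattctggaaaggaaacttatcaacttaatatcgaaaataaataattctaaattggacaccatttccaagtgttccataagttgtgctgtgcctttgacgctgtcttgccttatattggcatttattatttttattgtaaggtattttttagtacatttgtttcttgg
RpL23A, chr3L:1668640-1668824, minus strand: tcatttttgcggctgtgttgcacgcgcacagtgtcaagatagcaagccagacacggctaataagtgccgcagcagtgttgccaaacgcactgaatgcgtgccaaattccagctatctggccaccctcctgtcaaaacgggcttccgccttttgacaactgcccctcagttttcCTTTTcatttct
RpL15, chr3L:27267085-27267269, plus strand: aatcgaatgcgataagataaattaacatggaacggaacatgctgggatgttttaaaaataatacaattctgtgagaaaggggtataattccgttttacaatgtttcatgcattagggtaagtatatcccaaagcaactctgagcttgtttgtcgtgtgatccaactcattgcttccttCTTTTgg
RpS27A, chr2L:10408182-10408366, plus strand: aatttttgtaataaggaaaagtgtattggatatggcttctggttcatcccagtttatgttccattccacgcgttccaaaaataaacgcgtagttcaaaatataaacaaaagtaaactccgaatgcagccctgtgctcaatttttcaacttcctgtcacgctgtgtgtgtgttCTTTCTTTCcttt
RpL10, chr3L:23095457-23095641, minus strand: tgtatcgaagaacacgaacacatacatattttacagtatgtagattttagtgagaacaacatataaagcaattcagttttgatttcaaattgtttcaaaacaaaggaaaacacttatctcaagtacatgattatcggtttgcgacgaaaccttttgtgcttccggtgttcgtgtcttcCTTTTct
None of the 5 holds TATCGATA, and 4 of them, all but RpL5, hold a TCT initiator word. The next 3 are the genes of highest fold in y1w1118 adults, outside the same arm, whose stretch does hold the DRE word.
RpS7, chr3R:30209006-30209190, minus strand: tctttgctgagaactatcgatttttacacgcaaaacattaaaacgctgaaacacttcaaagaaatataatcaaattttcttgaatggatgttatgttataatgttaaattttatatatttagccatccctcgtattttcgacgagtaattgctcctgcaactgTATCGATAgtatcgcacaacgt
RpS12, chr3L:13023182-13023366, plus strand: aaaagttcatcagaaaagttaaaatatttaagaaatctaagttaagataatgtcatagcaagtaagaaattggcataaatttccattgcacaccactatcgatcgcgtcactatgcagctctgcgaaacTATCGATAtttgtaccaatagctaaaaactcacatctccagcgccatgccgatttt
RpS15Aa, chrX:13337691-13337875, minus strand: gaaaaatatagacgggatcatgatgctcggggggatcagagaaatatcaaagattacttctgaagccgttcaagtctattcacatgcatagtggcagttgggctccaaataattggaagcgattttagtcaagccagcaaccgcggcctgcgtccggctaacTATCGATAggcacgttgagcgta
Their regions had a fold enrichment of 7.56, 7.28 and 5.33 in y1w1118 adults, against 72.3 to 160 at the first 5. The last is RpL32. The study's negative control of binding in ChIP-qPCR was an rpl32 amplicon, which lies downstream of the start and outside the printed stretch.
RpL32, chr3R:30046147-30046331, minus strand: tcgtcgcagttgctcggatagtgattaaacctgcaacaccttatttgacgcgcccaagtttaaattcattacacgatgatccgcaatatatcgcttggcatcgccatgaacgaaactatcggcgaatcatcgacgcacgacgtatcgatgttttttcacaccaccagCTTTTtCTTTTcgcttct

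Ribosomal protein promoters were bound more often than those of other genes in all 10 lists. In y1w1118 adults 56 of 92 were bound (60.9%, Wilson 95% interval 50.7 to 70.2, counting error only), against 14.3% of the 13894 other protein-coding genes. The share was 63.0% (58 of 92) in wt-HA with anti-Mzfp1, where 14.3% of other genes were bound. It was 59.8% (55) against 16.4% in Δ42-HA and 50.0% (46) against 12.6% in ΔM2-HA with the same antibody. The 46 genes of the ΔM2-HA list were the same 46 that were bound in all 4 of these lists (50.0% of the family, 10.2% of other genes).

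The anti-HA lists differ widely in length, from 574 regions in wt-HA to 6245 in ΔM2-HA. In wt-HA 17 ribosomal protein genes were bound (18.5%, interval 11.9 to 27.6) against 3.48% of other genes, and all 17 were also bound in wt-HA with anti-Mzfp1. In ΔM2-HA 32 were bound (34.8%) against 16.3%, and in Δ42-HA 39 (42.4%) against 14.0%. The ΔZF-HA list held 8 (8.70%, interval 4.47 to 16.2) against 5.03% of other genes, and that interval includes the share of the other genes. Over the 500 strongest regions of each list, the anti-HA shares were 17.4%, 16.3%, 17.4% and 6.52% in the wt, ΔM2, Δ42 and ΔZF lines. Other genes had 3.22%, 3.05%, 2.99% and 0.914% there. The adult anti-Mzfp1 lists had 20.7% to 23.9%, against 4.33% to 4.48% of other genes. In embryos 30 genes were bound with the rat antibodies (32.6%) against 5.71%, and 6 with the rabbit antibodies (6.52%, interval 3.02 to 13.5) against 0.684%.

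**Figure D1:**
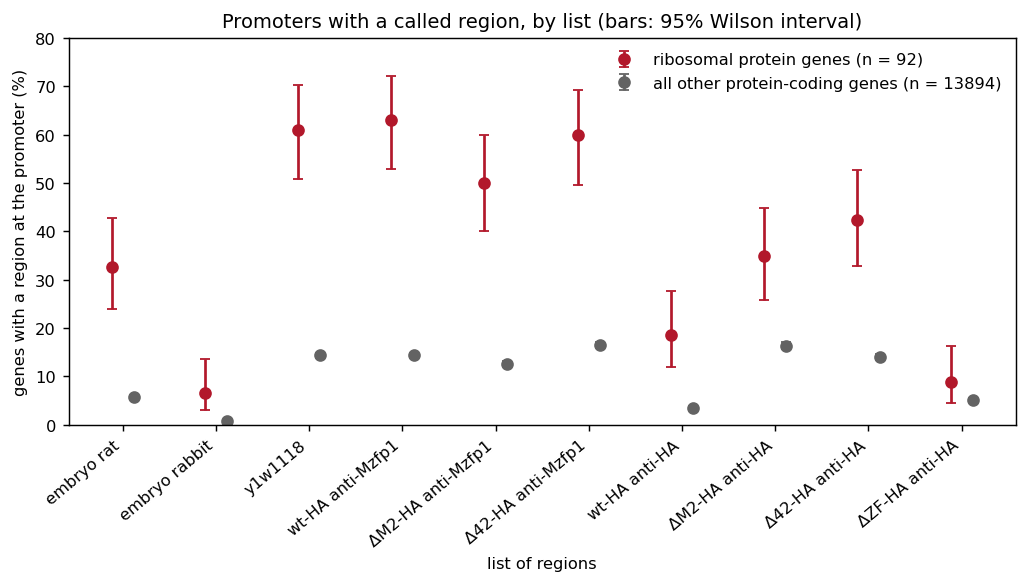
Share of promoters with a region in each of the 10 lists (y axis, percent of genes; x axis, list), for 92 ribosomal protein genes (red) and 13894 other protein-coding genes (grey), with Wilson 95% intervals for counting error. The red point lies above the grey one in every list, and the red interval reaches down to the grey point in ΔZF-HA, where the shares are 8.70% and 5.03%.

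The strength of the regions was less unusual than their number. Regions were ranked within a list by fold enrichment and the rank expressed as a percentile, 0 for the strongest. In y1w1118 adults the median ribosomal protein promoter stood at percentile 41.0 (quartiles 17.9 and 65.3), other bound genes at 47.9 (23.6 and 73.1), with median folds of 4.16 and 3.72. The difference was of the same kind in the 3 transgenic lines with anti-Mzfp1, with medians of 36.1, 36.3 and 33.2 for ribosomal protein genes in the wt, ΔM2 and Δ42 lines, and 47.2, 44.7 and 45.9 for other genes. The quartiles overlapped throughout.

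The anti-HA lists set the ribosomal protein genes further forward. Their median percentile was 24.4, 8.99, 16.9 and 0.595 in the wt, ΔM2, Δ42 and ΔZF lines, against 37.7, 37.9, 34.0 and 39.5 for other bound genes. This was not particular to them. Bound mitochondrial ribosomal protein genes stood at 26.7, 9.24 and 12.2 in the wt, ΔM2 and Δ42 lines. Translation factor genes stood at 8.99 (4 genes), 40.0 and 34.7, and aminoacyl-tRNA synthetase genes at 56.8 (1 gene), 59.1 and 47.9. In ΔZF-HA 6 of the 8 bound genes lay in the strongest 10% of the list, against 20.7% of other bound genes, and in ΔM2-HA 17 of 32 (53.1%) against 21.5%. These 3 mutant lists hold 6216 to 6245 regions each with a median fold of 2.48 to 2.97, so a promoter of moderate fold already ranks high in them. In embryos the rat list gave 36.7 against 49.9, and in the rabbit list, with 6 genes, the order was turned, 41.4 against 38.8.

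**Figure D2:**
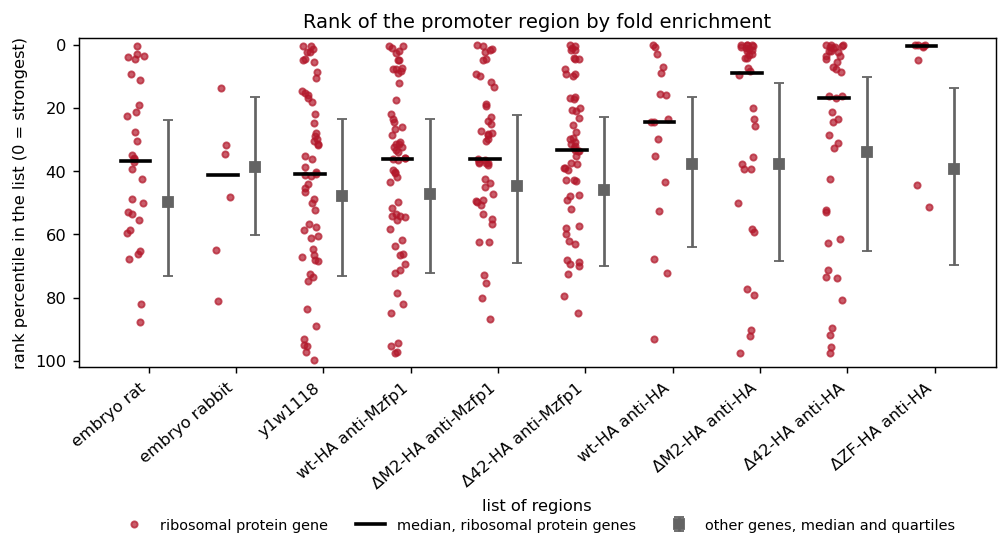
Rank percentile by fold enrichment (y axis, 0 strongest) of each bound ribosomal protein gene (red points) in each list (x axis), with their median (black line) and the median and quartiles of other bound genes (grey). The red points span almost the whole range in the adult anti-Mzfp1 lists and gather at the top in ΔZF-HA, where their median is 0.595.

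A few genes were bound far more strongly than the rest. RpL5, the 5S rRNA partner of the large subunit, and RpL23A, which lies at the exit of the peptide tunnel, led in y1w1118 adults with folds of 160 (rank 8 of 1670) and 157 (rank 9). RpL15 followed with 95.2, RpS27A, made as a fusion with ubiquitin, with 78.7, and RpL10, which is near the peptidyl transferase centre, with 72.3. These 5 of 56 bound genes lay among the 50 strongest regions, and the median of the 56 was 4.16.

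RpL23A held the first rank among all regions of 2 lists. Its region in y1w1118 adults (chromosome 3L, 1667825 to 1669392, dm6) covers the start site, contains no window of another protein-coding gene and has its summit 127 bp upstream. The fold was 157 in y1w1118 and 133, 108 and 160 in the wt, ΔM2 and Δ42 lines with anti-Mzfp1. The wt-HA list made with anti-HA gave 225 (rank 1 of 574), the ΔM2 list 56.7 (rank 19), the Δ42 list 167 (rank 2) and the ΔZF list 22.2 (rank 1 of 6218). The ratio of the anti-HA to the anti-Mzfp1 fold in wt-HA was 1.69, the highest of the 462 genes bound in both lists, where the other genes had a median of 0.641. From wt-HA to ΔM2-HA with anti-HA the ratio was 0.252, and 16 of 436 genes had a lower one. Both inputs of the reproducibility test gave like values there, with −log10 p of 14715 and 14542 in wt-HA and of 2376 and 2251 in ΔM2-HA. The labels do not say which libraries or pools these inputs were, so their likeness cannot be read as agreement between replicates. In y1w1118 the inputs were less even over the whole list, with a median ratio of 1.45 at ribosomal protein genes and 1.46 at all regions. In embryos RpL23A had a fold of 10.7 (rat) and 10.5 (rabbit), the highest of the 6 rabbit values.

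RpL5 was bound in all 10 lists, with folds of 15.3 and 6.19 in rat and rabbit embryo lists, 124, 85.6 and 141 in the wt, ΔM2 and Δ42 lines with anti-Mzfp1, and 97.3, 64.8, 90.1 and 11.5 in the wt, ΔM2, Δ42 and ΔZF lines with anti-HA. Its summit stayed between 36 and 59 bp upstream of the start site in every list. The adult regions were wide, 3269 bp in y1w1118, and reached the start window of CG17490 in all adult lists but ΔZF-HA, where the region was 547 bp and reached no other protein-coding window. RpS27A, also present in all 10, ran from 6.20 in ΔZF-HA to 78.7 in y1w1118 and shares its region with the start window of Ip259 in each list. Its anti-HA order differed from that of RpL23A, with 36.1, 64.2 and 41.2 in the wt, ΔM2 and Δ42 lines.

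RpL15 and RpL10 were absent only from the rabbit embryo list. RpL15 had folds of 94.9, 58.7 and 103 in the wt, ΔM2 and Δ42 lines with anti-Mzfp1, then 64.1, 74.0, 87.0 and 10.6 with anti-HA in the wt, ΔM2, Δ42 and ΔZF lines. RpL10 had 73.2, 45.6 and 76.4, then 44.7, 42.2, 55.4 and 5.75. Both are embedded in pericentromeric heterochromatin, and both kept their summits upstream of the start site in every list.

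RpL12, a protein of the stalk base, was also bound in 9 lists, from 2.47 (ΔZF-HA) to 35.7 (y1w1118). RpL39, a small protein lining the exit tunnel, was bound in all but ΔZF-HA, at 26.5 in y1w1118 adults, 19.2, 7.71 and 12.4 in the wt, ΔM2 and Δ42 lines with anti-Mzfp1 and 5.47 and 8.13 in the embryo lists. The region at RpS20 had a fold of 32.5 in y1w1118 adults and 31.5 in Δ42-HA with anti-Mzfp1, but its summit lay 312 bp upstream of the RpS20 start, and the nearest start was that of CG17271. This region cannot be assigned to the ribosomal protein gene rather than to its neighbour.

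**Figure D3:**
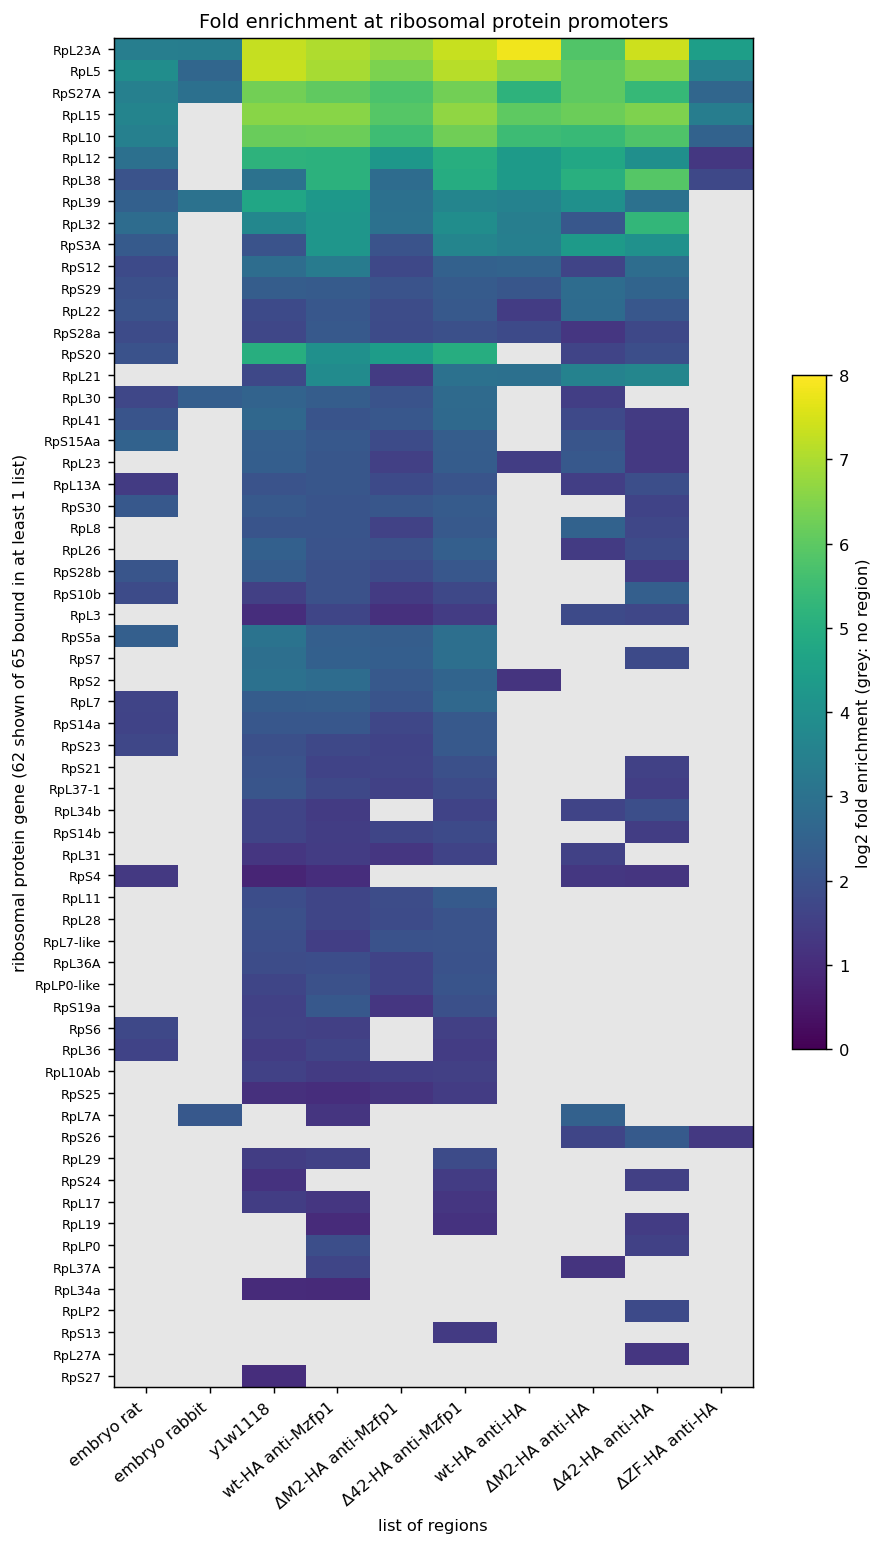
Fold enrichment (colour, log2 scale; grey, no region) at 62 of the 65 ribosomal protein genes bound in at least 1 list (rows) in the 10 lists (columns), ordered by the number of lists. RpL23A, RpL5 and RpS27A are filled in all 10 columns, and the lower rows are filled mainly in the adult anti-Mzfp1 columns.

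The promoters ranged from bound in every list to bound in none. In all, 65 genes had a region in at least 1 list, 28 in 6 or more and 14 in 8 or more, while 27 (29.3%) had none, against 69.5% of other protein-coding genes with none. The shares of other genes in 6 or more and in 8 or more lists were not counted. The 14 are RpL5, RpL23A, RpS27A, RpL10, RpL12, RpL15, RpL38, RpL39, RpL22, RpL32, RpS3A, RpS12, RpS28a and RpS29. Among the 27 never bound are core proteins of both subunits, such as RpL4 at the exit tunnel, RpS3 at the mRNA entry, RpS9 and RpS18, and the stalk protein RpLP1. A gene with no region was below the calling threshold, and its level is not given by the lists.

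Large and small subunit genes were bound at similar shares in y1w1118 adults, 31 of 50 (62.0%) and 24 of 38 (63.2%). Of the 4 genes with a stalk symbol 1 was bound, RpLP0-like, whose place in the stalk rests on its symbol alone. Its region has the summit at −1049 bp, where the nearest start, 397 bp away, is that of 14-3-3zeta. No region of that list lay at RpLP0, RpLP1 or RpLP2. RpLP0, which anchors the stalk, was bound in 2 lists, wt-HA with anti-Mzfp1 (3.82) and Δ42-HA with anti-HA (2.93). With anti-HA in ΔM2-HA 22 of 50 large subunit genes were bound (44.0%) and 10 of 38 small subunit genes (26.3%), while in Δ42-HA the order was turned, with 20 of 50 (40.0%) and 17 of 38 (44.7%). The large subunit had the higher share in 7 lists and the small subunit in 3. Genes of the X chromosome were bound in 12 of 14 cases in y1w1118 adults and 13 of 14 in wt-HA with anti-Mzfp1, against 44 and 45 of 78 autosomal genes, and with anti-HA in 1 of 14 and 16 of 78 in wt-HA. Other genes of the X chromosome and the autosomes were bound in 12.7% and 14.7% of cases in y1w1118 adults, 12.9% and 14.6% in wt-HA with anti-Mzfp1 and 2.43% and 3.69% with anti-HA.

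Some paralogous pairs were split between a bound and an unbound copy. In the whole family 50 of 92 genes were bound in at least 4 lists and 27 in none. The share of other genes bound in at least 4 lists was not counted. Of 13 pairs recognised by symbol, 7 had 1 copy bound in at least 4 lists and the other in none, 5 had both bound in some list, and RpL24 with RpL24-like had neither. The bound copies of the 7 are RpL10Ab (4 lists), RpL22 (8), RpL37-1 (5), RpS5a (5), RpS10b (6), RpS15Aa (7) and RpS19a (4). The partners without a region are RpL10Aa, RpL22-like, RpL37-2, RpS5b, RpS10a, RpS15Ab and RpS19b, several of which, RpL22-like, RpS5b, RpS10a and RpS19b among them, are known for expression in the germ line. This pattern was noticed after the values were seen. In RpS14a and RpS14b, neighbours on the X chromosome, both copies had their own region, although that of RpS14a has its summit 283 bp upstream and nearest to Dhdds. RpS28a was bound in 8 lists with a fold of 2.42 to 4.67, and each of its regions also reaches the start window of Axn.

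In the embryo, 31 ribosomal protein genes were bound with at least 1 antibody, and 30 of these were also bound in y1w1118 adults (96.8% of the embryonic and 53.6% of the y1w1118 genes). Of 799 other protein-coding genes bound in embryos 721 were also bound in y1w1118 adults, 90.2% of the embryonic and 36.2% of the adult ones. Both embryo lists held RpL23A, RpL30, RpL39, RpL5 and RpS27A. RpL7A was the exception, with a fold of 4.57 in the rabbit list and none in y1w1118 adults, although it was bound in wt-HA with anti-Mzfp1 (2.36) and ΔM2-HA with anti-HA (5.60). Folds in the embryo rat list were low, 2.50 to 15.3 with a median of 4.15, and embryo and adult lists were called in different ways from different kinds of reads, so that their folds are given side by side only.

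Of the mutants, ΔM2-HA lacked 12 of the 58 ribosomal protein genes bound in wt-HA with anti-Mzfp1 and had no gene that wt-HA lacked, where 13.4% of its other genes were absent from wt-HA. These 12 are 20.7% of the 58, beside 464 of 1981 other genes (23.4%). The 12, RpL7A, RpL17, RpL19, RpL29, RpL36 and RpLP0 among them, had folds of 1.95 to 3.82 in wt-HA. Of the 46 genes bound in both, the ratio of ΔM2-HA to wt-HA had a median of 0.806, from 0.185 to 1.44, and in 1517 other genes the median was 0.935. Δ42-HA lacked 5 of the 58 (8.62%, beside 9.39% of other genes), RpL7A, RpL34a, RpL37A, RpLP0 and RpS4. Unlike wt-HA it held RpS13 and RpS24, 3.64% of its 55 genes, beside 21.2% of its other genes. Fold in Δ42-HA over wt-HA had a median ratio of 1.11 in 53 shared genes and of 1.20 in 1795 other genes. The 3 lists share their controls and their endogenous protein. By the study's methods the anti-Mzfp1 antibodies were raised against a part of the protein that includes the region deleted in Δ42. How well they precipitate the Δ42 protein was not tested here.

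With anti-HA the mutant lists are far longer than that of wt-HA. Over the 500 strongest regions ΔM2-HA and Δ42-HA had 16.3% and 17.4% of the family, beside 17.4% in wt-HA (other genes 3.05%, 2.99% and 3.22%). In the full lists each held 16 of the 17 wt-HA genes (94.1%), beside 86.8% and 83.5% of the 484 other wt-HA genes. Of their own genes, 16 of 32 (50.0%) and 23 of 39 (59.0%) were absent from wt-HA, beside 81.5% and 79.2% of other genes. The ratio of fold to wt-HA had a median over the 16 genes of 1.35 for ΔM2 and 1.25 for Δ42, beside 1.26 and 1.34 for other genes. The study itself saw no true peaks of the ΔZF protein, so a listed region there need not be binding. In the ΔZF-HA list 7 of the 17 (41.2%) were still present, beside 149 of 484 other genes (30.8%). The 7 are RpL5, RpL10, RpL12, RpL15, RpL23A, RpL38 and RpS27A, at a median of 0.129 of their wt-HA fold (0.0985 to 0.172), where the 149 had a median of 0.157. The eighth gene, RpS26, was in none of the anti-Mzfp1 lists and had a fold of 2.53, with its summit 241 bp downstream of the start. RpL27A and RpLP2 were likewise bound in anti-HA lists and in no other.

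**Figure D4:**
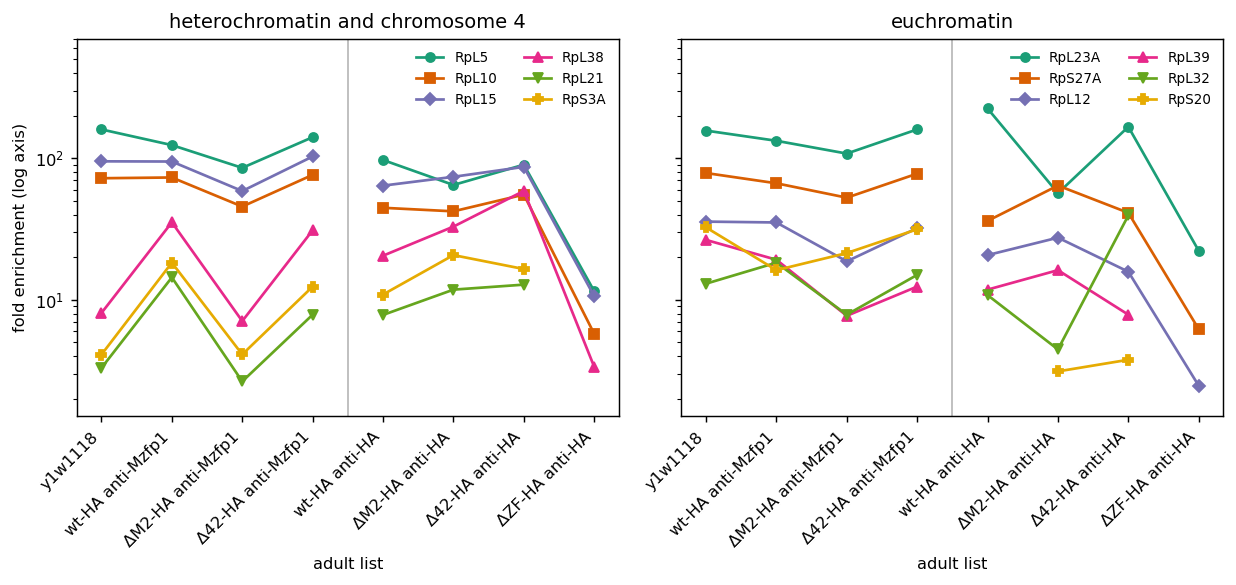
Fold enrichment (y axis, log scale) in the 8 adult lists (x axis; a vertical line parts anti-Mzfp1 from anti-HA) of 6 genes in heterochromatin or on chromosome 4 (left) and 6 in euchromatin (right); a missing point means no region. On the left, among the anti-Mzfp1 lists, RpL38, RpL21 and RpS3A are higher in wt-HA and Δ42-HA than in the other lists, RpL5, RpL10 and RpL15 vary less, and on the right RpL23A falls from 225 to 56.7 between wt-HA and ΔM2-HA with anti-HA.

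Ribosomal protein genes in heterochromatin were bound in almost every adult list. RpL5, RpL10, RpL15, RpL21 and RpL38 lie in pericentromeric heterochromatin as the study bounds it, and all 5 were bound in every adult list except ΔZF-HA, which lacked RpL21. In embryos 4 of the 5 were bound with the rat antibodies and 1 with the rabbit antibodies. Of 151 other protein-coding genes of the same regions, 39 (25.8%) and 19 (12.6%) were bound in these embryo lists. Across the adult lists their share ran from 27.8% (ΔZF-HA) to 52.3% (Δ42-HA with anti-HA). It was 64 of 151 (42.4%) in y1w1118 adults. The 5 had a median fold of 72.3 there, beside 9.97 for the 64.

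These genes, and RpS3A on chromosome 4, differed in how the fold varied across the lines. RpL5, RpL10 and RpL15 had similar folds in y1w1118 and in wt-HA with anti-Mzfp1, with ratios of 0.776, 1.01 and 0.998. RpL38, a small protein of the large subunit, had 8.07 in y1w1118 and 35.3 in wt-HA, and RpL21, another large subunit protein, 3.30 and 14.4. RpS3A, a small subunit protein and the only ribosomal protein gene on chromosome 4, had 4.10 and 18.3. Their ratios were 4.37, 4.36 and 4.47, where 1653 other genes had a median of 0.868, and 24, 25 and 21 of 1707 genes had a higher ratio. In ΔM2-HA the same antibody gave 7.07, 2.65 and 4.11 for RpL38, RpL21 and RpS3A, close to the y1w1118 values, and in Δ42-HA 31.0, 7.85 and 12.4. The other bound genes of heterochromatin had a median fold of 9.97 in y1w1118 and of 23.3, 8.73 and 21.6 in the wt, ΔM2 and Δ42 lines with that antibody. With anti-HA the 3 genes had higher folds in ΔM2-HA (32.9, 11.8 and 20.7) than in wt-HA (20.5, 7.82 and 10.9), and in Δ42-HA they had 58.8, 12.8 and 16.5. The anti-HA ratios of ΔM2-HA to wt-HA, 1.61, 1.51 and 1.89, lay above the median of 1.26 of 420 other genes. Of 436 genes, 135, 151 and 80 had a higher ratio. The anti-Mzfp1 ratios, 0.200, 0.185 and 0.224, were low among 1563 genes, with 22, 14 and 34 lower. The amounts of protein differed between the lines, and their part in this was not tested. The 3 genes were grouped after their values were seen.

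RpL32, a large subunit protein whose gene is a common qPCR reference in flies, was bound in 8 of 10 lists. The fold was 7.17 in the embryo rat list, 13.0, 18.3, 7.85 and 15.0 in y1w1118 and the wt, ΔM2 and Δ42 lines with anti-Mzfp1, and 10.8, 4.46 and 39.5 in the wt, ΔM2 and Δ42 lines with anti-HA. No region was listed in the rabbit embryo and ΔZF-HA lists. The Δ42-HA value with anti-HA was 3.67 times that of wt-HA, a ratio exceeded by 15 of 420 genes. The summit in y1w1118 lay 49 bp upstream of the start, and the region (chromosome 3R, 30045926 to 30046493) also reaches the start window of CG7943. The rpl32 primers, the study's negative control, match 3R at 30045532 to 30045714, 183 bp of which 121 lie in RpL32 exons, 447 bp downstream of the most upstream start. A region covered this amplicon in 5 of the 10 lists, wt-HA and ΔM2-HA with anti-Mzfp1 and the wt, ΔM2 and Δ42 lines with anti-HA. All 5 came from transgenic lines, and neither the y1w1118 list nor the embryo lists had a region there. The study ran its ChIP-qPCR on other flies, with altered boundary elements. In y1w1118 adults the region ended 211 bp short of the amplicon, and in every list that bound the gene the summit lay 454 to 501 bp away.

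Most summits were upstream of the start sites. In y1w1118 adults the median lay at −52.0 bp (quartiles −96.5 and −30.8), 48 of 56 were upstream and 49 within 200 bp, and other bound genes had a median of −49.0. The start of the ribosomal protein gene was the nearest in 48 of 56, and 24 of the 56 regions also covered the window of another protein-coding gene. In wt-HA with anti-HA the median was −63.0 bp. In Δ42-HA with anti-HA the ribosomal protein genes had −27.0 and other genes 114 bp, and in ΔZF-HA −68.0 and 50.0. Among the 39 ribosomal protein genes of the Δ42-HA list 23 summits were upstream (quartiles −79.5 and 228), and in ΔZF-HA 6 of 8.

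**Figure D5:**
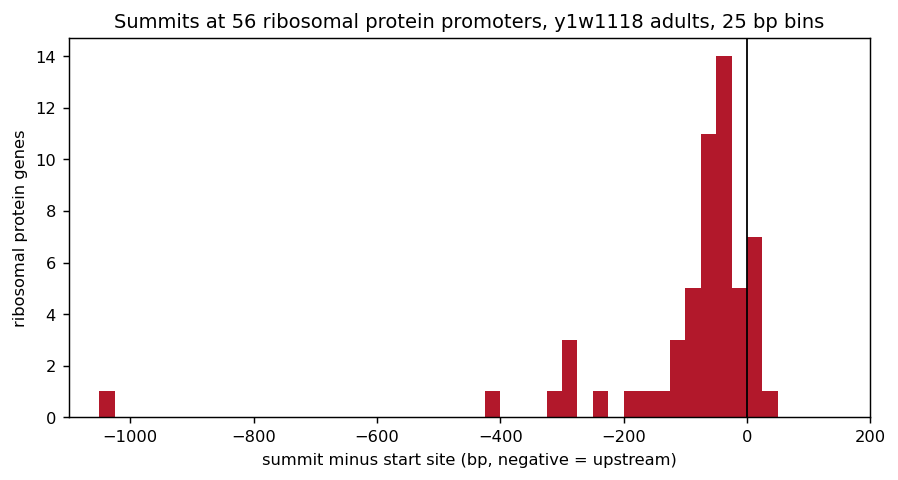
Distance of the region's summit from the gene's nearest annotated start (x axis, bp, negative upstream) for the 56 ribosomal protein genes bound in y1w1118 adults (y axis, genes per 25 bp). Of these, 48 lie upstream, around a median of −52.0 bp, and RpLP0-like stands alone at −1049 bp.

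The promoter words were counted from 250 bases before to 50 after the start of the longest transcript of each gene, on both strands for TATCGATA and for GGTCACAC, the core of Motif 1, and on the gene's strand for the TCT initiator words. None of the words contains another. The printed stretches use the start nearest the summit, which can be another start of the same gene. TATCGATA was present in 21 of 56 ribosomal protein promoters bound in y1w1118 adults (37.5%, interval 26.0 to 50.6) and in 7 of 36 not bound (19.4%, 9.75 to 35.0), against 24.0% of other bound and 6.30% of other unbound promoters. The TCT word was in 64.3% of bound and 63.9% of unbound ribosomal protein promoters, against 6.38% of all other promoters. GGTCACAC was in 4 of 56 bound (7.14%) and 9 of 36 unbound promoters (25.0%), against 11.5% of other bound and 6.73% of other unbound promoters.

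The 5 ribosomal protein genes of highest fold in y1w1118 adults lack the DRE word. Of the 10 ribosomal protein genes with the highest fold in y1w1118 adults 2 hold it, RpL39 among them, a share near the 24.0% of other bound promoters. Among all 56 bound ribosomal protein promoters 21 hold it (37.5%). The highest fold was 26.5 among these 21, against 160 among the 35 without. Median folds were alike, 4.35 with and 4.15 without. Within 100 bp of the summit the word was found in 20 of 56 regions at ribosomal protein genes in y1w1118 adults (35.7%) and in 333 of 1390 promoter regions of other genes (24.0%). In wt-HA with anti-HA these counts were 3 of 17 (17.6%) and 34 of 375 (9.07%), and in ΔZF-HA 0 of 8 and 6 of 664 (0.904%). A match to a word is a description of the sequence and was not tested as a binding site.

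In y1w1118 adults other genes of the translation machinery were bound less often than the 60.9% of ribosomal protein genes. Regions lay at 25 of 73 mitochondrial ribosomal protein genes (34.2%, interval 24.4 to 45.7), 21 of 52 genes for eIF and eEF translation factors (40.4%, 28.2 to 53.9) and 7 of 32 aminoacyl-tRNA synthetase genes (21.9%, 11.0 to 38.8). In wt-HA with anti-HA the counts were 5, 4 and 1, or 6.85%, 7.69% and 3.12%, against the 18.5% of the cytoplasmic ribosomal protein genes. In ΔM2-HA with anti-HA the translation factors were bound in 19 of 52 cases (36.5%), beside 34.8% of the ribosomal protein genes, and in ΔZF-HA in 5 of 52 (9.62%), beside 8.70%.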

How the data were processed

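Chromatin immunoprecipitation with sequencing was analysed from 10 deposited lists of regions, 1 for each group. By the study's methods and the submitters' processing notes, the authors trimmed reads with cutadapt, aligned them to dm6, removed duplicates with Picard and called regions with MACS2 against preimmune controls, at p 1e-05 for single-end embryo libraries and at p 0.01, followed by an IDR (irreproducible discovery rate) threshold of 0.05 between replicates and 0.01 between pseudoreplicates, for paired-end adult libraries. The authors' deposited lists give the fold enrichment as a ratio, the −log10 p, and −log10 q as a score. In the authors' adult lists, further scores hold the −log10 IDR and the −log10 p of both IDR inputs.

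Starts and gene types came from Ensembl release 115 and sequences from RefSeq's Release 6 genome, both of which share dm6 coordinates; 0 regions ran past a chromosome end. The strongest overlapping region was taken for each gene. Wilson 95% intervals cover counting error over genes only, and no test was run, since each group has 1 list. Named were genes bound in y1w1118 or embryos, the 5 strongest elsewhere, those bound in 6 or more lists, RpL32 and those in heterochromatin; other genes were named after their values were seen. Windows, thresholds, equal list lengths, start sites and ranking were varied. Results for some genes are not reported here. The members and gene lists were chosen with earlier results of these data known. The overlap code was checked on synthetic regions. Python 3.11.15 with pandas 2.3.3 and scipy 1.17.1 was used.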

Additional observations from a re-analysis of the deposited data

How the results depend on the processing

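Of 60 alternatives for the bound share, 52 stayed inside the main interval and 8 did not, and the ribosomal protein share was above that of other genes in all 60. With only the 500 strongest regions of each list the share was 20.7% in y1w1118, 21.7%, 23.9% and 20.7% in the wt, ΔM2 and Δ42 lines with anti-Mzfp1, and 16.3% and 17.4% in ΔM2-HA and Δ42-HA with anti-HA (other genes 4.45%, 4.41%, 4.33%, 4.48%, 3.05% and 2.99%), a change made by fewer regions. In Δ42-HA with anti-HA a window of 500 bp gave 54.3% and a summit inside the window 27.2% (other genes 19.3% and 6.49%). All 20 alternatives for the median rank stayed within the quartiles, and in 19 the ribosomal protein genes ranked ahead of other genes. Those quartiles are wide, 2.97 to 57.3 in Δ42-HA and 1.68 to 42.2 in ΔM2-HA with anti-HA. There a summit inside the window moved the median from 16.9 to 4.65 and from 8.99 to 4.36. Other genes went from 34.0 to 27.1 and from 37.9 to 37.3. No paired analysis was possible because each group has 1 list. Replicate lists and read counts were not analysed here, so no replicate could be left out. Genes with overlapping promoters cannot be told apart, and absence from a list is limited by its threshold.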
